A study of Homo sapiens with 2 samples.

Results

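The short arm of human chromosome 5 (5p) carried 300 of the 26642 peaks that were called in DNA recovered with a TCF4 antibody. A peak was counted on 5p when its summit, the position of its highest fragment coverage, lay on chromosome 5 below base 48046286 of the build hg38, which is the boundary toward the centromere. The last summit inside belonged to a peak at chr5:45765592-45765707 with a fold enrichment of 4.75 on 6 fragments, 2.28 Mb from that boundary. The first summit outside belonged to a peak at chr5:49599481-49600762 with a fold enrichment of 6.81 on 88 fragments, 1.55 Mb beyond it. No summit therefore lay close enough to the boundary for its exact position to decide the membership of a peak.

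The study compared 1 library made with a TCF4 antibody and 1 library made with an IgG control antibody, both from spheres of CAL-27. This established human line derives from a squamous carcinoma of the tongue, and spheres are aggregates grown in suspension. The labels name no further treatment, genotype or time. Of the IgG antibody library no values were analysed here. Since each group had 1 library, no value has a replicate check, no test was made, and intervals cover counting error only. Peaks that do not need the TCF4 antibody could not be told apart from TCF4 sites.

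A peak is a stretch where recovered fragments pile up above their local density, and such stretches often lie at promoters, where chromatin is open, and at distal regulatory elements. TCF4 names both an E protein, a basic helix-loop-helix factor that binds E-box sites of the form CANNTG, and TCF7L2, an HMG-box partner of beta-catenin in Wnt signalling that binds sites such as CTTTGAT and CTTTGAA. Which of these proteins the antibody recognises is not stated in the labels. Gain of 5p is a frequent chromosome change in squamous carcinomas, and the arm holds TERT, the catalytic subunit of telomerase, SKP2, which directs the cell-cycle inhibitor p27 to degradation, and OSMR, the oncostatin M receptor.

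The sequences just before the starts of 6 genes show the DNA beneath 5p peaks that lay on gene starts. They were chosen from the genes with the strongest such peaks and from the named growth genes SKP2 and OSMR. Sequences are from the RefSeq promoter table for GRCh38.p14, run 5′ to 3′ toward the gene and end on the base before its start. Capitals mark E-boxes (CANNTG), the TCF/LEF sites CTTTGAT or else CTTTGAA, GC boxes (the letters GGGCGG) and the CCAAT box, on either strand.
DNAJC21 (chr5:34929309-34929558, plus strand): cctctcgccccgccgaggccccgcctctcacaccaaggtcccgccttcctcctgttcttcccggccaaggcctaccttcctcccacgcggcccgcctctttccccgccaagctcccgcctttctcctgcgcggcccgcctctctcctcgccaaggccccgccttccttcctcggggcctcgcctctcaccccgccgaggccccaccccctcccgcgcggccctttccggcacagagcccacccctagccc
RIMOC1 (chr5:41904094-41904343, plus strand): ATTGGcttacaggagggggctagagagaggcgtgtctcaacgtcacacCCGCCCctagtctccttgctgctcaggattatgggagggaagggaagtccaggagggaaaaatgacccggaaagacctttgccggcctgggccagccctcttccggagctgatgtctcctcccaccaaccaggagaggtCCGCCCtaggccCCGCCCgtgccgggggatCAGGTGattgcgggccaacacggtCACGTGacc
HMGCS1 (chr5:43313413-43313662, minus strand): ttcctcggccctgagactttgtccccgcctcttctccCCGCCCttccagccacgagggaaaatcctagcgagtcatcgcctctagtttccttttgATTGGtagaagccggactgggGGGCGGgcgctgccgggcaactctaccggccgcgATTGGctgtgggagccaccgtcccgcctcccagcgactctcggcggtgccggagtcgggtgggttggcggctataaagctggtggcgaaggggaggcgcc
SDHA (chr5:218154-218319, plus strand): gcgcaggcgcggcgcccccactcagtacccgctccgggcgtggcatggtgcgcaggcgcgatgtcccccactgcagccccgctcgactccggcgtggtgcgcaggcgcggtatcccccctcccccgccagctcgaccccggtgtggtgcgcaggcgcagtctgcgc
SKP2 (chr5:36151888-36152110, plus strand): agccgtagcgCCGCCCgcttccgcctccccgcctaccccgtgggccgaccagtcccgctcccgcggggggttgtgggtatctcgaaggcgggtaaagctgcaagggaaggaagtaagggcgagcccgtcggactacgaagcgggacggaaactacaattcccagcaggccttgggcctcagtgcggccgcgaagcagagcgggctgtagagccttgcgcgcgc
OSMR (chr5:38845762-38846011, plus strand): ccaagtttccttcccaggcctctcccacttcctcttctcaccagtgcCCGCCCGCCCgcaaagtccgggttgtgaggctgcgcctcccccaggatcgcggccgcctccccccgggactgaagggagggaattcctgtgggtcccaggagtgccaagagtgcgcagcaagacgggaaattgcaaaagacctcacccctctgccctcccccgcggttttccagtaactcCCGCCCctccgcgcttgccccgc
The DNAJC21 stretch had a GC content of 74.0% and none of these motifs, and its summit lay 9 bp before the start. Of its bases 90.4% lay in the peak, while the other 5 stretches lay in their peaks whole. The RIMOC1 stretch held the only E-boxes among the 6, CAGGTG and CACGTG, and its summit lay 226 bp before the start. OSMR had no E-box in its printed bases, but a CAGCTG that ended past the start lay inside its peak. Among stretches that were read but are not printed, that of TARS1 held an E-box, CAGTTG. Those of ZNF131 and MYO10 held none. The HMGCS1 stretch held 2 GC boxes and 2 CCAAT boxes, but its summit lay 267 bp before the start, upstream of the printed bases. The SDHA stretch is the 166 bases between the starts of SDHA and CCDC127, and the SKP2 stretch is the 223 bases between the starts of SKP2 and LMBRD2. OSMR held 3 GC boxes, and none of the 6 stretches held CTTTGAT or CTTTGAA. A match describes these letters and is not a binding site.

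The 5p peaks were mostly small. Their fold enrichment, the authors' ratio of fragments at the summit to the local background with 1 added to each, ran from 3.45 to 25.8, with a median of 4.87 and quartiles of 4.27 and 5.79. The number of fragments at the summit, solved from the authors' fold and p-value, ran from 5 to 99 with a median of 8 and quartiles of 6 and 11. For 8 fragments the exact Poisson interval runs from 3.45 to 15.8, and the order of most 5p peaks is not fixed by their counts. Of the 300 peaks, 219 (73.0%) rested on 10 fragments or fewer, against 65.4% on the long arm and 55.3% in the rest of the genome. The median width was 159 bp on 5p (interval of the median 148 to 172 bp), 171 bp on the long arm and 176 bp elsewhere.

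A smaller share of peaks passed stricter thresholds on 5p than in the rest of the genome. A −log10 q of at least 5 was reached by 85 of the 300 peaks (28.3%, Wilson 95% interval 23.5% to 33.7%). The share was 36.3% on the long arm and 41.3% in the rest of the genome, and it was the lowest of 24 chromosomes and arms, with Y left out. At a −log10 q of at least 10, 21 peaks (7.0%) were left on 5p, against 16.5% elsewhere, and chromosome 13 had a lower share (6.85%). The local background under the peaks was also low, with a median of 0.675 fragments (interval 0.648 to 0.731) against 0.746 on the long arm and 0.967 elsewhere. At 40 of the 300 peaks (13.3%) it stood at the floor of 0.475 fragments that applies across the whole list, against 9.24% elsewhere. The part of the background level in the number of strong peaks was not tested.

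**Figure D1:**
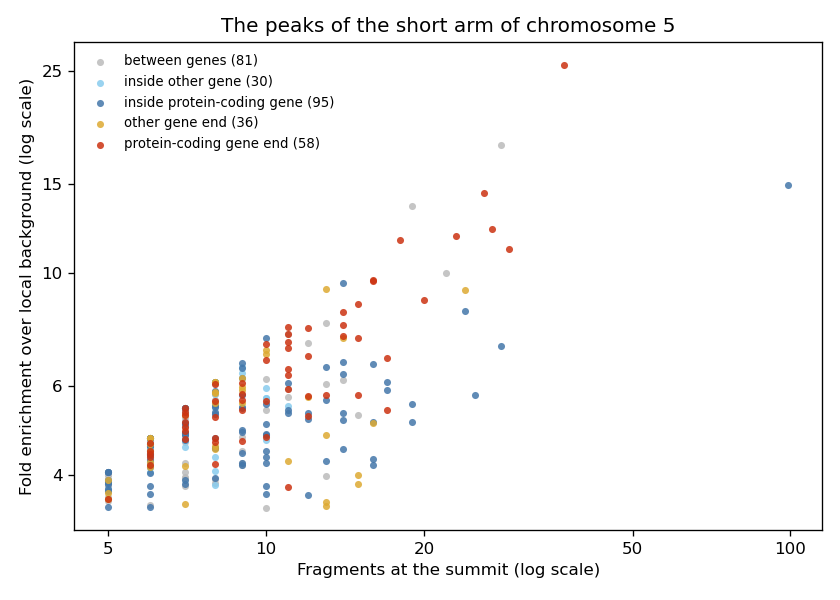
Fold enrichment (vertical, log scale) against fragments at the summit (horizontal, log scale) for each of the 300 peaks, coloured by its position relative to genes. Most points lie at 10 fragments or fewer, the highest fold is 25.8 on 37 fragments, and the peak with most fragments has 99.

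Summits were sparse along 5p, and how their number compared with the number of genes turned with the peak threshold. The arm had 6.24 summits per Mb (exact Poisson interval 5.56 to 6.99), which was 0.720 of the density in the rest of the genome, where it was 8.67. Protein-coding genes were sparser still, at 3.48 per Mb against 6.54. Counting all peaks, 5p had 1.80 summits per protein-coding gene, against 1.30 on the long arm and 1.33 elsewhere, and 21 of the 23 other chromosomes or arms compared had a lower ratio. Chromosome 7 with 2.28 and chromosome 9 with 2.09 had higher ones. With peaks of a −log10 q of at least 5 the direction turned, to 0.509 summits per protein-coding gene on 5p against 0.548 elsewhere, and at 10 or more it was 0.126 against 0.219.

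The 2 Mb next to the chromosome end stood apart from the remaining arm. They held 67 of the 300 summits (22.3%; interval of the count 51.9 to 85.1) and 38 of the 167 protein-coding genes. The median local background there was 1.39 fragments and the median summit count 11 fragments, against 0.628 and 7 beyond. Only 7 of these 67 summits (10.4%) lay within 1 kb of a protein-coding gene end, against 51 of 233 (21.9%) beyond. The next 2 Mb, which include the Iroquois genes IRX2 and IRX1, had 25 summits around 2 protein-coding genes. The longest sparse stretch ran from 18 to 30 Mb, with 18 summits in 12 Mb (1.5 per Mb) and no summit above 10 fragments. It holds the cadherin genes CDH18, CDH12, CDH10 and CDH9 and PRDM9, the meiotic histone methyltransferase, and none of these 5 had a summit at an end. The only other protein-coding record there, LOC124901178, had one. The longest gap between summits, 2.19 Mb, lay in that stretch. From 40 to 42 Mb all 4 summits lay at protein-coding gene ends, with a median fold of 9.03, and from 46 Mb to the boundary there was no summit and no protein-coding gene. Over 25 bins of 2 Mb, summits and protein-coding genes had a Pearson correlation of 0.819 and a Spearman correlation of 0.740. These are descriptions of bins from 1 library, and without the bin at the chromosome end they were 0.492 and 0.706.

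**Figure D2:**
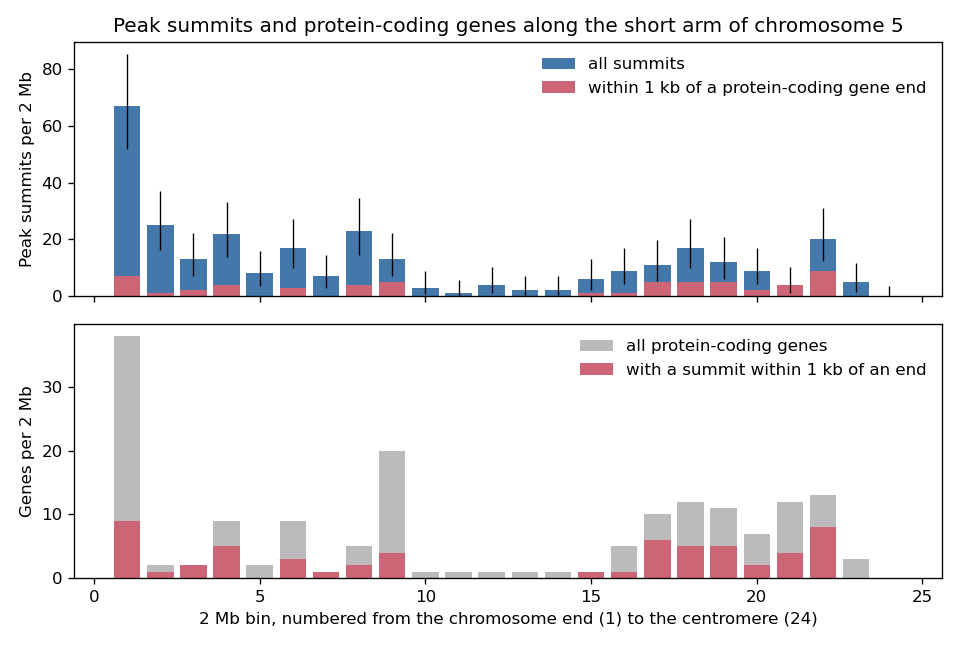
Peak summits (top, with exact Poisson 95% intervals) and protein-coding genes (bottom) in bins of 2 Mb from the chromosome end toward the centromere, with those at or having a summit within 1 kb of a gene end in red. The bin at the chromosome end holds 67 summits and 38 genes, and bins 10 to 15 hold 18 summits and 6 genes in all.

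A smaller share of summits lay at genes on 5p than elsewhere. At most 1 kb from a protein-coding gene's start or end lay 58 of 300 summits (19.3%, interval 15.3% to 24.2%), against 322 of 957 (33.6%) on the long arm and 8527 of 26342 (32.4%) in the rest of the genome. This was the lowest share among the 24 chromosomes and arms, followed by 21.0% on chromosome 21 and 22.8% on chromosome 7. Within 1 kb of an annotated protein-coding start lay 45 summits (15%, interval 11.4% to 19.5%), against 34.5% on the long arm and 29.6% elsewhere. Ends of other genes took 36 summits (12%, interval 8.80% to 16.2%), against 7.18% elsewhere. The inside of protein-coding genes took 95 (31.7%), against 31.6% elsewhere, the inside of other genes 30 (10%), against 6.41%, and the space between genes 81 (27.0%, interval 22.3% to 32.3%), against 22.4%. Peaks at protein-coding gene ends were the strongest of these classes, with a median fold of 5.77, 11 fragments and a width of 237 bp. The peaks between genes had a median fold of 4.75, 7 fragments and a width of 147 bp.

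The share at gene ends on 5p was below that of the rest of the genome and of the long arm at every level of fragments. Of the 132 summits with 5 to 7 fragments, 13 (9.85%, interval 5.85% to 16.1%) lay at a protein-coding gene end, against 18.2% of such summits elsewhere and 19.2% on the long arm. With 8 to 10 fragments it was 15 of 87 (17.2%, interval 10.7% to 26.5%) against 29.0% and 38.6%. With 11 to 15 fragments it was 19 of 53 (35.8%, interval 24.3% to 49.3%) against 38.9% and 46.1%, and with 16 or more 11 of 28 (39.3%, interval 23.6% to 57.6%) against 47.2% and 44.4%. In the latter groups, which hold few 5p summits, the 5p interval included the values of the rest of the genome and of the long arm. The weakest group also made up more of the peaks, 44.0% on 5p and 28.2% elsewhere.

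Counted by genes, the difference was smaller. Of the 167 protein-coding genes of 5p, 59 had a summit no farther than 1 kb from an end (35.3%, interval 28.5% to 42.8%), against 41.2% of all protein-coding genes, a value inside that interval. The strongest such peak per gene had a median fold of 6.07 on 5p and 6.38 over all genes. A further 31 genes had summits only inside, and 75 had none at an end or inside. A start was listed for 138 of the 167 genes, and 46 of these (33.3%, interval 26.0% to 41.6%) had a summit within 1 kb of it, against 44.4% of all protein-coding genes with a listed start. In the starts count the genome value lies above the 5p interval. That count includes the 13 TAF11L genes described below, similar copies of which only TAF11L3 had a summit at its start. It was not made without them, so how far they account for this gap was not tested. The other 2 of the 167 genes, TPPP and MRPL36, named after their values were seen, had a summit at a start that lies inside the gene record and none at its ends. TPPP, which encodes a tubulin polymerization promoting protein, had a fold of 9.33 on 13 fragments 6 bp from its start.

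The gene count was touched by TAF11L genes, a family of similar copies named after the TFIID subunit gene TAF11, and by provisional LOC records. The 13 TAF11L genes stand within 137 kb (chr5:17498231-17635053), and 1 of them, TAF11L3, had a summit at an end. Of the 16 LOC records, 4 had one. Among the other 138 protein-coding genes the share was 54 (39.1%, interval 31.4% to 47.5%), against 42.0% of such genes over the whole genome.

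**Figure D3:**
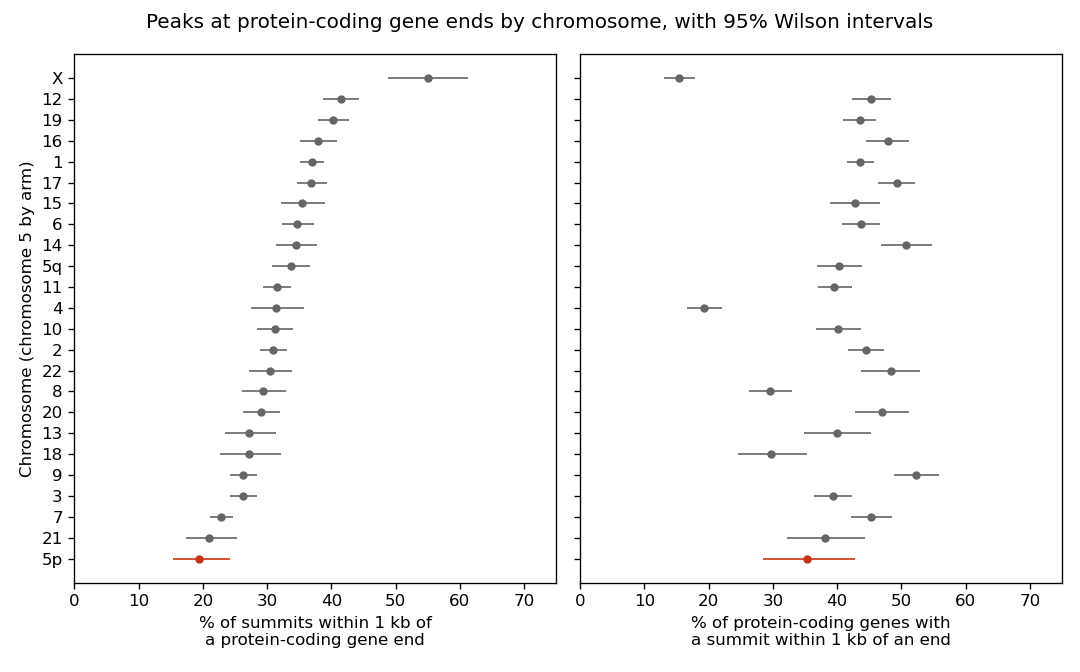
Share of summits within 1 kb of a protein-coding gene end (left) and share of protein-coding genes with such a summit (right) for each chromosome, with chromosome 5 by arm (5p in red), Y left out and Wilson 95% intervals as bars. The left value of 5p, 19.3%, is the lowest, and its right value, 35.3%, has 4 lower ones.

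Summits near starts on 5p lay close to them and mostly before them. Of the 45 summits within 1 kb of a protein-coding start, 32 (71.1%, interval 56.6% to 82.3%) lay upstream, against 61.9% of 7600 in the rest of the genome without chromosome 8. Within 250 bp of the start lay 40 (88.9%, interval 76.5% to 95.2%), against 71.4% elsewhere. Within 100 bp it was 19 (42.2%, interval 29.0% to 56.7%) against 39.2%, a value inside the interval. The median distance was 111 bp on 5p and 136.5 bp elsewhere.

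**Figure D4:**
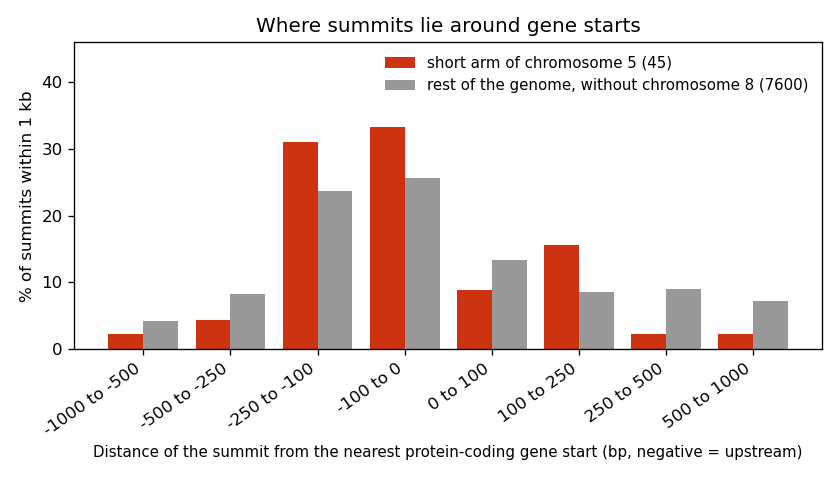
Share of summits (vertical) by their distance from the nearest protein-coding gene start (horizontal, bp, negative values upstream) among the 45 such summits of 5p (red) and the 7600 of the rest of the genome without chromosome 8 (grey). On 5p, 71.1% lie upstream and 88.9% within 250 bp.

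A larger share of genes had a peak where the start region is shared with a gene on the opposite strand. A partner start within 1 kb on the opposite strand was listed for 30 of the 138 genes, and 16 of the 30 (53.3%, interval 36.1% to 69.8%) had a summit at a start. Of the other 108 genes, 30 (27.8%, interval 20.2% to 36.9%) had one, and the intervals overlap slightly. The same order was seen in the rest of the genome, with 66.0% of 3472 and 38.4% of 12233 genes. The peaks of the paired genes had a median fold of 7.26 and those of the others 6.18. Among pairs of protein-coding genes, 1 peak at chr5:218086-218453 (fold 9.68, 16 fragments) lay between SDHA, the flavoprotein subunit of succinate dehydrogenase, and CCDC127, whose starts are 167 bp apart. Likewise, 1 peak (fold 7.26, 10 fragments) lay between BRIX1, a ribosome assembly factor, and RAD1, a clamp subunit of the DNA damage checkpoint, with starts 207 bp apart. SKP2 and LMBRD2 shared a peak at chr5:36151885-36152124 (fold 7.30, 11 fragments). TRIP13 and BRD9 shared one at chr5:892596-893115 (fold 6.82, 17 fragments). The pair DROSHA, the nuclear microRNA processing enzyme, and C5orf22, with starts 208 bp apart, had no summit there. Genes in such pairs share 1 peak and are not independent counts.

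The strongest peak at a protein-coding gene was at chr5:17517617-17517869, 628 bp upstream of TAF11L3, with 37 fragments and a fold of 25.8. Within the same array, a peak at chr5:17599075-17599309, 1341 bp upstream of TAF11L10 had a fold of 13.6 on 19 fragments. Both stood on a local background at the floor of 0.475 fragments. Since TAF11L genes are similar copies, the copy that such fragments came from is uncertain.

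After TAF11L3, the highest peaks at protein-coding gene ends were those of DNAJC21, ZNF131, MARCHF6, RIMOC1 and HMGCS1. DNAJC21, a chaperone of ribosome maturation, had a fold of 14.4 on 26 fragments (chr5:34929333-34929654), on the GC-rich stretch printed above. ZNF131, a BTB zinc-finger factor, had 12.2 on 27 fragments (chr5:43121018-43121829), the widest 5p peak at 812 bp. MARCHF6, a ubiquitin ligase of the endoplasmic reticulum, had 11.8 on 23 fragments (chr5:10353321-10353863). RIMOC1, a regulator of mitophagy, had 11.6 on 18 fragments (chr5:41903941-41904349). HMGCS1, the cytosolic HMG-CoA synthase of cholesterol synthesis, had 11.2 on 29 fragments (chr5:43313225-43313868). After SDHA and CCDC127 came RPL37, a protein of the large ribosomal subunit, with 9.66 on 16 fragments (chr5:40835214-40835441). PDCD6, a calcium-binding adaptor of membrane traffic, had 8.85 on 20 fragments (chr5:271227-271830). TARS1, the threonyl-tRNA synthetase, had 8.70 on 15 fragments (chr5:33440738-33441206), and PRKAA1, a catalytic subunit of the energy sensor AMPK, had 8.40 on 14 fragments (chr5:40798284-40798434). From TAF11L3 to PRKAA1 these are the 12 protein-coding genes with the highest fold at an end.

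Genes of RNA processing, translation and the ribosome had summits at 10 of 12 members, against 41.2% of all protein-coding genes, with a median fold of 6.71 against 6.38 over all genes with such a peak. DNAJC21, RPL37, TARS1 and BRIX1 were the highest. DROSHA and FASTKD3, a mitochondrial RNA-binding protein, had none at an end. The mitochondrial ribosomal protein genes MRPL36 and MRPS30 are counted on the mitochondrial list instead, and neither had a summit at an end. The lists were chosen with earlier results of these data known, so the share of 10 of 12 depends on which genes were placed there. Cell cycle, repair and chromatin genes had summits at 6 of 8 with a median fold of 6.82, led by SKP2, RAD1, TRIP13, a remodeller of checkpoint complexes, and BRD9, a subunit of a SWI/SNF complex. TRIP13 and BRD9 share 1 peak, with that fold of 6.82. SKP2, TRIP13 and BRD9 are counted on the growth list too, and SKP2 also on the ubiquitin list, so these lists are not independent. NIPBL, the cohesin loader, had its nearest summit 109 kb away, and TERT had none inside. Ubiquitin and deubiquitinase genes had summits at 5 of 7 (3 of 7 at a −log10 q of at least 5) with a median fold of 6.88, namely MARCHF6, SKP2, OTULIN, which removes linear ubiquitin chains (6.88 on 12 fragments), MARCHF11 (5.78 on 9) and FBXL7 (4.20 on 6). FBXO4 and UBE2QL1 had none at an end. Mitochondrial and metabolic enzymes had summits at 7 of 13 (4 of 13 at a −log10 q of at least 5, where 27.1% of all protein-coding genes had one) with a median fold of 6.06. HMGCS1 and SDHA came first, then NADK2, the mitochondrial NAD kinase (6.49 on 11 fragments), and AMACR, the racemase of branched fatty acid breakdown (6.06 on 8 fragments). FASTKD3 and MRPL36 had none at an end, though MRPL36 had one 10 bp from its listed start (4.81 on 10 fragments).

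Solute carriers, cadherins and Wnt-linked genes were without a summit at their ends, apart from 1 cadherin or guidance gene when the window was widened to 2000 bp. Of 7 solute carriers, 8 cadherin and neural guidance genes and 4 Wnt-linked genes, none had a summit within that 1 kb, against 41.2% of all protein-coding genes, and 4, 5 and 1 of them had summits inside only. The Wnt-linked gene with summits inside was CTNND2, a delta-catenin gene, with 4. It is counted on the cadherin and guidance list too, so these lists are not independent. NKD2, an inhibitor of Wnt signalling, and DAB2, an endocytic adaptor, had their nearest summits 50.1 kb and 271 kb from an end. For GDNF, counted as Wnt-linked though it is a neurotrophic factor, it was 25.1 kb. The Wnt-linked list is thus small and loosely drawn. Of the 3 Iroquois homeobox genes, IRX2 had a summit at an end (5.37 on 17 fragments), while IRX1 and IRX4 had 1 summit each inside, and with a window of 2000 bp the count was 2 of 3. Of 10 genes of actin, membrane traffic and adhesion, 4 had one (2 at a −log10 q of at least 5), with a median fold of 6.63. These were PDCD6, MYO10, the filopodial myosin (7.92 on 14 fragments, with the summit 2 bp from the start), GOLPH3, a Golgi protein (5.33 on 7), and ADAMTS16, a secreted metalloprotease (4.71 on 7). ADAMTS12 and DAB2 had none at an end.

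Among 14 growth and survival genes of the arm, 7 had a summit at an end (50%), near the 41.2% of all protein-coding genes, with a median fold of 6.82. OSMR had a peak at its start (chr5:38845706-38846114) with 7.53 on 14 fragments and 3 more summits inside, with folds of 5.45, 4.74 and 6.10. SKP2, TRIP13 and BRD9 followed. RICTOR, the defining subunit of mTORC2, had 5.62 on 9 fragments (chr5:39074285-39074754), SUB1, a transcription coactivator, 6.07 on 9, and GOLPH3 5.33 on 7. TERT had no summit inside, and the summit nearest to one of its ends was 38.4 kb away, in a peak inside CLPTM1L (chr5:1333369-1333575, fold 5.90, 17 fragments). CLPTM1L and DAP, a death-associated protein gene, had none at an end. TRIO, a guanine nucleotide exchange factor gene, had 6 summits inside and none at an end. Of 7 cytokine and hormone receptors, 3 had a summit at an end (42.9%), also near that share, with a median fold of 5.91. These were OSMR, PTGER4, a prostaglandin E2 receptor (5.91 on 11), and GHR, the growth hormone receptor (4.41 on 6). The nearest summit to LIFR, the leukaemia inhibitory factor receptor, was 8.01 kb from an end (fold 4.09), and that to IL7R, the interleukin-7 receptor of lymphocytes, 148 kb.

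Markers of other cell types were mostly without a summit at an end. It was 0 of 8 for neurons, 0 of 5 for hepatocytes and complement and 0 of 2 for lymphocytes, with 4, 0 and 0 genes having summits inside only. The neuron list repeats CDH9, CDH10, CDH12, CDH18, CTNND2, GDNF and SLC6A3 from the lists above. Of 4 ciliated cell genes, DNAH5, an axonemal dynein heavy chain, had one (7.80 on 12 fragments), and CAPSL and ROPN1L had none. The DNAH5 summit lay 150 bp from an end of the record, while the summit nearest to its only listed start was 54812 bp away. Over all lists together, 37 of 90 genes (41.1%) had a summit at an end, against 41.2% of all protein-coding genes. Each list holds few genes, and its count describes this library only.

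**Figure D5:**
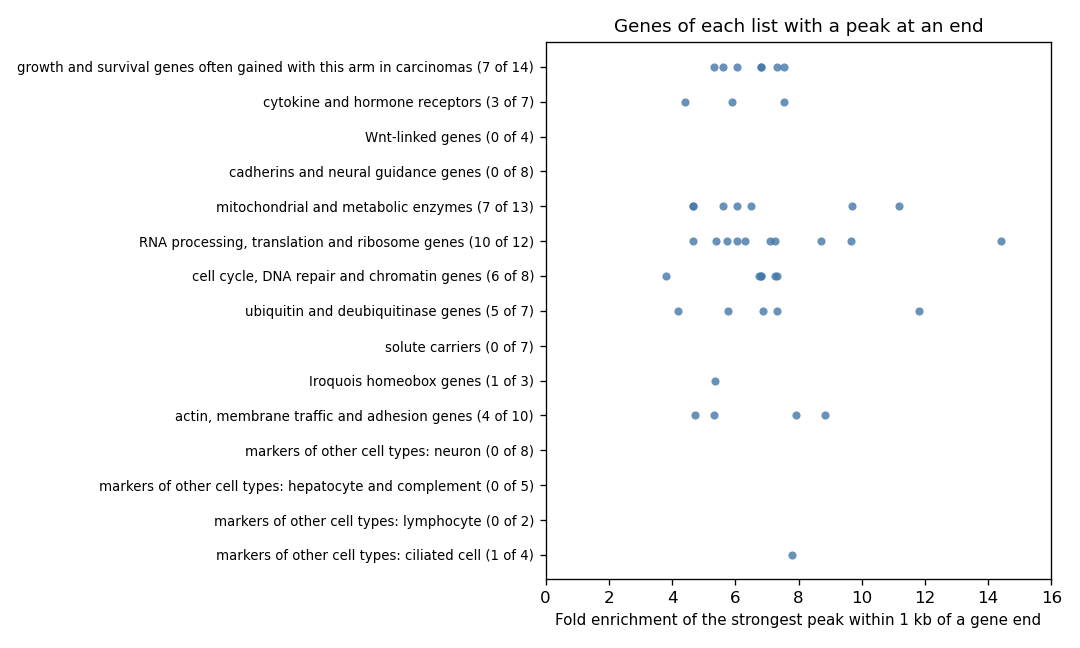
Fold enrichment (horizontal) of the strongest peak within 1 kb of a gene end for each gene that has one, with a row for each gene list and the number of members with such a peak beside its name. The list of RNA processing, translation and ribosome genes has 10 of 12, and solute carriers, cadherins and Wnt-linked genes have none.

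Non-coding genes of 5p had peaks at shares near those of the genome, apart from a small class of transcribed pseudogenes. Of 286 lncRNA records, 37 (12.9%) had a summit at most 1 kb from an end, against 14.3% of all lncRNA records, and 21 of the 37 were over 1 kb from any protein-coding end. The highest folds among these 21 were 9.33, in the peak at the TPPP start, which lies 194 bp from an end of LOC101929898, and 9.28 at LOC124901164 (24 fragments). A peak at chr5:8457427-8457671 (fold 7.05, 10 fragments) lay far from protein-coding genes, 13 and 110 bp from the ends of LINC02226 and MIR4458HG and 556464 bp from the nearest protein-coding end. Of 17 miRNA genes, 1 had a summit within 1 kb, MIR4277 (fold 5.89, 707 bp away), against 9.15% of all miRNA genes. No summit lay at any of 12 snoRNA genes, against 3.67% of all. Of 167 pseudogenes, 6 had one (3.59%), against 2.55%, and of 7 transcribed pseudogenes, 4 had one (57.1%), against 14.5%. These 4 were SDHAP3, LSP1P3, PDCD6P1 and LOC646652, on 8, 9, 9 and 15 fragments. SDHAP3 and PDCD6P1 are named as copies of the 5p genes SDHA and PDCD6, so the copy that their fragments came from is uncertain. LOC646652 lies in the dense group of summits within the C1QTNF3 record described below.

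Several of the strongest 5p peaks lay away from protein-coding gene ends. The second highest fold on the arm, 17.9 on 28 fragments (interval 18.6 to 40.5), was at chr5:11472-11687, the outermost 5p peak, which lies between genes 38545 bp from the nearest protein-coding end. The peak with most fragments, 99 (interval 80.5 to 121), was at chr5:912248-913046 inside TRIP13, with a fold of 14.9 on a background of 5.71 fragments, the highest background on the arm. It was 799 bp wide and lay 6645 bp from the gene end. After the peak by TAF11L10 came a peak at chr5:3392469-3392615 (fold 9.998, 22 fragments), 203320 bp from IRX1, and a peak at chr5:14676538-14676658 inside OTULIN (fold 9.56, 14 fragments). Ranked by fold in the whole list, these 5 peaks were the 98th, 231st, 379th, 1535th and 1799th.

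Most 5p summits stood alone. With summits up to 10 kb apart joined, there were 247 groups, of which 211 were single summits, and the median gap between neighbours was 58.1 kb. Groups of 3 or more numbered 6 and held 29 summits. The largest had 9 summits in 15.1 kb within the record of C1QTNF3, a gene for a secreted C1q-related protein, with folds from 3.48 to 6.69 and a median background of 2.94 fragments. This group (chr5:34181146-34196287) lies upstream of the only listed C1QTNF3 start, at base 34043213 on the minus strand. It spans the transcribed pseudogene LOC646652 (chr5:34189581-34194204). Next came 6 in 18.5 kb and 5 in 10.7 kb at ZDHHC11B, a palmitoyltransferase gene with a near-identical neighbour, ZDHHC11, so their assignment is uncertain. ZDHHC11B had most summits inside of any 5p gene, 10 in 74.4 kb, with folds from 3.68 to 6.34 and a median background of 1.93 fragments. It was followed by C1QTNF3 with 9, PDZD2 and TRIO with 6 each and AHRR, the repressor of the aryl hydrocarbon receptor, with 5. The backgrounds at C1QTNF3 and ZDHHC11B were above the 5p median of 0.675, and their part in the number of peaks called there was not tested.

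The 5p promoters with a summit were richer in GC than those without one. In windows from 250 bases before to 50 bases after a start, 37 starts of 5p had a summit inside the window and 127 had none within 1 kb. GGGCGG on either strand was in 29 of the 37 windows (78.4%, interval 62.8% to 88.6%) and in 45.7% of the 127, against 56.3% of all 22199 windows. Among windows with a GC content of at least 65% the order turned, with 24 of 28 (85.7%) and 37 of 41 (90.2%). The median GC content was 71.0% with a summit and 52.7% without, or 58.3% without when the TAF11L copies were left out. CCAAT was in 35.1% and 35.4%, against 34.7% of all windows, and among the GC-rich windows in 10 of 28 (35.7%, interval 20.7% to 54.2%) and 7 of 41 (17.1%, interval 8.53% to 31.3%). The AP-1-like site TGANTCA was in 1 of the 37 and in 7.09% of the 127, against 6.15% of all.

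E-boxes of the form CANNTG were in a smaller share of the 5p windows with a summit. They were in 13 of 37 (35.1%, interval 21.8% to 51.2%) and in 97 of the 127 without one (76.4%, interval 68.3% to 82.9%), against 65.1% of all windows. In the rest of the genome the shares were 57.4% and 69.3%. Among windows with a GC content of at least 65%, they were 8 of 28 (28.6%, interval 15.3% to 47.1%) and 27 of 41 (65.9%, interval 50.5% to 78.4%) on 5p, and 54.2% and 55.0% elsewhere. Without the TAF11L copies the share of 5p windows without a summit was 73.9%. The forms CAGGTG and CAGCTG, which are also counted under CANNTG, were in 5.41% and 18.9% of the 37 windows, against 19.9% and 18% of all. CTTTGAT was in 1 of the 37 windows (2.70%) against 1.98% of all, and CTTTGAA in 0 of 37, which allows a share of up to 9.41% by the Wilson interval, against 3.61% of all. A gene can have several windows, and windows of starts close together overlap, so they are not independent.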

How the data were processed

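DNA from CAL-27 spheres was recovered with a TCF4 antibody (1 library) or IgG (1 library, not analysed here). Per the submitters' processing notes, the tools were Bowtie2 2.3.5.1, MACS2 2.2.7.1 and SAMtools, on build hg38. Settings, total fragments and whether IgG served as the control of the caller are not given in the sources used here. The fold enrichment (a ratio) of each peak is the authors' own value, used only within this list. The deposited −log10 p and −log10 q give each summit's p-value and q-value from the caller, the highest q being close to 0.05. The deposited score equals the −log10 q multiplied by 10 and cut to a whole number. Fragments and local background at each summit were solved from the fold, (fragments + 1) / (background + 1), and the Poisson upper tail. The solution met the −log10 p to within 0.0001 for all 26642 peaks, and 500 of 500 simulated peaks were recovered. The simulated peaks were built with the same formulas, over a narrower range of fragments and backgrounds than the list. Their recovery therefore checks the solving step only.

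Genes came from the RefSeq table of GRCh38.p14 (59679 records, 20037 protein-coding, without strand or exons), so a summit counted as at a gene end when at most 1 kb from the start or end of a record. Exonic, intronic and UTR positions were not used here. The promoter table gave 22199 starts of 15843 protein-coding genes, and chromosome 8 was left out of values that use starts. Shares carry Wilson, counts exact Poisson and medians binomial order-statistic 95% intervals. The members and gene lists were chosen with earlier results of these data known. Named were the 12 genes with the highest fold at an end, of each list up to 4 members with a peak at an end and up to 2 lacking one, the 5 genes holding most summits, the 5 peaks of highest fold not at a protein-coding gene end, the TAF11L genes and the loci of TERT, SKP2, RICTOR, OSMR, NKD2 and DAB2. Other genes, such as list members beyond these, the shared starts, the non-coding genes and those of the sparse stretch, were named after their values were seen. Alternatives were stricter thresholds, other windows, overlap in place of summits, starts alone, other gene sets and leaving out high backgrounds. Software was SciPy 1.17.1 and NumPy 2.4.6 with pandas 2.3.3 under Python 3.11.15, and figures were drawn with Matplotlib 3.10.9.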

Additional observations from a re-analysis of the deposited data

How the results depend on the processing

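Counted with peaks of a −log10 q of at least 5, the density of 5p relative to the rest of the genome moved from 0.720 to 0.494, and at 10 or more to 0.305. Per protein-coding gene in place of per Mb it was 1.36, on the other side of 1. With both changes together, chosen after seeing the data, it returned to 0.929 and 0.574. The share of summits at protein-coding gene ends moved from 19.3% to 37.6% and 52.4% under these thresholds and to 15% with annotated starts alone. For the rest of the genome this share was not computed under the stricter thresholds. Whether 5p stays below it there was not tested, and its all-peak share is no match for these values. The share of genes with a summit moved from 35.3% to 21.6% and 7.19%, where fewer peaks can reach a gene. It lay below that of the rest of the genome under every alternative run, by 2.45 to 11.2 percentage points. The 11.2 came from annotated starts alone, counted with the TAF11L genes. At a −log10 q of at least 5 the medians were a fold of 6.55, a width of 215 bp, 13 fragments and a background of 0.874 fragments. In an alternative chosen after seeing the data, without the 2 Mb next to the chromosome end, the density ratio was 0.584, the median summit count 7 fragments and the median background 0.628. Windows of 500 or 2000 bp, overlap in place of summits, and leaving out TAF11L and LOC records (also chosen after seeing the data) moved the shares they were run on by less than their intervals, as did leaving out the highest 10% of backgrounds for the medians. The list total went from 37 to 25 genes at a −log10 q of at least 5 and to 42 with 2000 bp. Of the single lists, the mitochondrial went from 7 to 4, the ubiquitin from 5 to 3 and the actin list from 4 to 2 at that threshold, and with 2000 bp the Iroquois list went from 1 to 2 and the cadherin list from 0 to 1. No paired analysis was possible because each group has 1 library and the results come from no test. Depth limits single peaks, since a summit of 8 fragments has an interval of 3.45 to 15.8.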
